A study of Mus musculus with 9 samples.

Results

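The interferon response genes described here are a list of 34 genes that cells switch on when they sense interferon or viral nucleic acid. They were chosen by name, with earlier results of these data known. The part of that choice in the shares given beside all genes was not tested. Each gene was read from its brightest single-gene probe set, the one with the highest mean signal over all 9 arrays, and the 18194 genes of the array that have such a probe set formed the comparison. A single-gene probe set was found for 32 of the 34 members, and Isg15 and Ifi44 were not analysed here. Of these 32, 30 passed the filter on low signal (mean above 25.3), and Ifit1 and Dhx58 did not.

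The arrays came from T-cell lymphomas of G3 Atm-/-TERT-ER mice, grown in recipient SCID mice. All tumours carry the Atm deletion, which removes a kinase that signals DNA breaks, and the TERT-ER allele, which joins the catalytic subunit of telomerase to an oestrogen receptor domain so that 4-hydroxytamoxifen (4-OHT) switches it on. The groups were 3 telomerase-positive tumours at passage 4 on 4-OHT, 5 tumours at passage 4 on vehicle that use alternative lengthening of telomeres (ALT), and 1 telomerase-positive parental tumour. Per the series description the lymphomas first arose under 4-OHT, and both passage 4 groups descend from shared parental lines. Drug, telomerase activity and telomere maintenance by ALT change together between the 2 passage 4 groups and cannot be told apart. The sources used here give neither the age of the animals nor whether separate animals stand behind the tumours of a group, so p-values measure the spread between these samples only. SCID hosts lack mature lymphocytes but keep natural killer and myeloid cells, which can contribute RNA to a tumour specimen.

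Type I interferons bind the receptor IFNAR and, through the kinases JAK1 and TYK2, assemble a transcription factor that contains STAT2 and IRF9 and reads the interferon-stimulated response element. Type II interferon binds IFNGR and acts through a different DNA element, the gamma-activated site. The induced proteins degrade viral RNA, block translation, trap virions or raise the alarm further, and IRF7 and IRF9 feed back on the pathway itself. DNA in the cytosol is sensed by cGAS, which signals through STING, and double-stranded RNA by RIG-I (encoded by Ddx58) and MDA5 (encoded by Ifih1), which signal through MAVS.

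Each array reported 45101 probe sets with a median signal of 39.8 to 43.8. Precision is limited by how few arrays there are, and without detection calls the background level is unknown. Transcripts of pancreatic acinar cells were abundant in telomerase 3, ALT 1, ALT 2 and ALT 5, with summed signals of 92986 to 185818 over 12 markers against 298 to 1019 in the other 5 arrays. The 10 skeletal muscle markers summed to 8598 in telomerase 1 and 12807 in the parental tumour, against 241 to 572 elsewhere. The 11 T-cell markers summed to 37644 to 41179 in telomerase tumours and 27880 to 34480 in ALT tumours, where Cd3d, Cd3e, Cd3g and Lef1 fell and Cd2 rose. The 14 macrophage and monocyte markers overlapped (7202 to 10170 and 7370 to 11000), with Cd14 alone past the threshold. Of 8 dendritic cell markers that are not members, 4 were tested. Ly6d and Tcf4 rose, Itgax and Batf3 did not pass (log2 difference 0.05 and −0.11), and Flt3, Siglech, Zbtb46 and Xcr1 lay below the filter. The 8 summed to 1723 to 2991 in telomerase and 5542 to 9166 in ALT tumours. Ly6d carried most of this gap (372 to 1568 and 3821 to 7218). The 8 cytotoxic cell markers summed to 7156 to 12438 and 1066 to 5806, a gap carried by Gzma, with Ncr1, Klrd1, Gzmb, Eomes and Klre1 below the filter. The 6 B-cell markers (2432 to 5996 and 2647 to 4656), 9 endothelial markers (507 to 799 and 499 to 644) and 8 stromal markers (5220 to 6886 and 4228 to 8012) overlapped, and none of those tested passed. Beyond fits split by pancreatic signal or holding a term for it, the part of these cell types in the results was not tested. With bulk RNA fewer cells of a type and less RNA per cell cannot be told apart.

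Every interferon response gene that passed the test was lower in ALT than in telomerase tumours. Of the 30 tested members 7 fell past an adjusted p of 0.05 (limma on log2 of the signal plus 16) and 0 rose; 11 of the 30 (36.7%) had an unadjusted p below 0.05, beside 31.4% of all tested genes. The 7 were Usp18 and Trim25, which act on the ISG15 system, the transcription factor genes Irf7 and Irf9, the nucleic acid sensor gene Zbp1, the RNA editing enzyme gene Adar and Parp14. Over all 12369 tested genes 17.5% passed, 10.1% lower and 7.48% higher, so the 23.3% of members that fell stand beside 10.1% of genes. The groups did not overlap in 8 members (26.7%), all with ALT lower, where 13.9% of tested genes had ALT lower without overlap and 10.9% had ALT higher. The log2 difference was below 0 in 21 members (70.0%) against 50.9% of tested genes, and its median was −0.33 against −0.01 for all tested genes. The count of members that fell was 4 without telomerase 1, of which 2 were among the 7, where 659 of the 12369 tested genes fell. Without telomerase 2 it was 3, all among the 7, where 845 of all tested genes fell. With a term for pancreatic signal in the fit of all passage 4 tumours, 7 members fell, 6 of them among the 7, where 1014 genes fell. Among the arrays low in pancreatic transcripts (telomerase 1 and 2, ALT 3 and 4) 5 members fell, 3 of them among the 7, where 454 genes fell. Among those high in them (telomerase 3, ALT 1, 2 and 5) the median log2 difference of the members was −0.19. There the single telomerase tumour was given the spread of the ALT group, so calls in this split are not counted here.

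**Figure D1:**
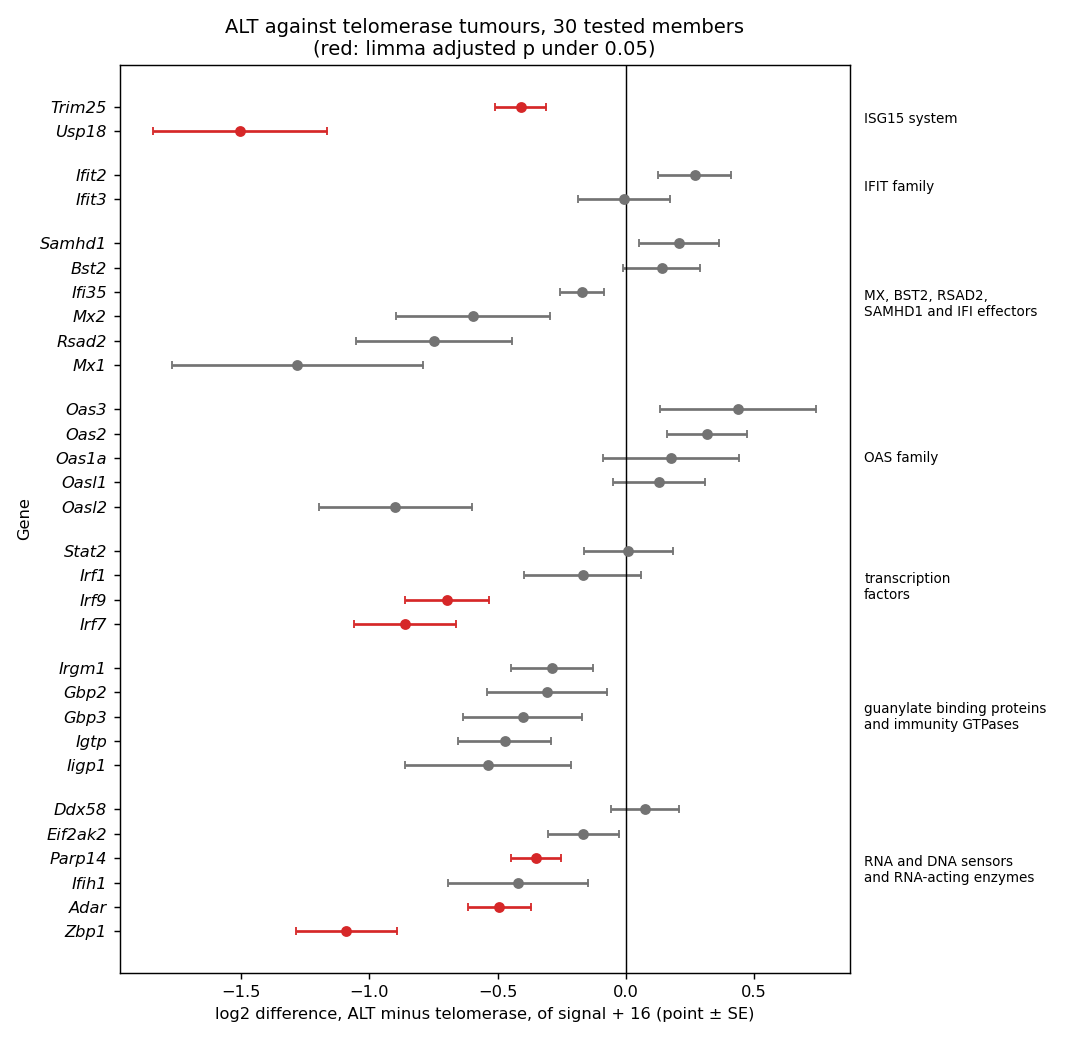
Log2 difference (ALT minus telomerase, signal plus 16) of the 30 tested interferon response genes, grouped by role, as points with their SE, with 5 ALT and 3 telomerase arrays behind each point. The 7 genes past the limma threshold, in red, all lie left of 0, from −1.50 for Usp18 to −0.35 for Parp14, and the largest difference to the right is 0.44 for Oas3, which did not pass.

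In the ISG15 system, Usp18 encodes the protease that removes the ubiquitin-like protein ISG15 from its targets and also restrains signalling at IFNAR. Its signal was 238, 336 and 118 in telomerase 1, 2 and 3, and 53.9, 31.8, 84.7, 77.3 and 92.5 in ALT 1 to 5. Every ALT tumour lay below every telomerase tumour, although telomerase 3 was close to ALT 5. Usp18 had the largest fall of the list, with a log2 difference of −1.50 (SE 0.339, limma adjusted p = 0.0140), which missed the threshold without telomerase 1 (0.0644) and without telomerase 2 (0.0630). Within the arrays low in pancreatic transcripts the difference was −1.63 (adjusted p = 0.00815) and within those high in them −0.91 (0.343).

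Trim25 encodes a ubiquitin ligase that activates RIG-I and is itself modified by ISG15, and it was the brightest member. Its signal was 2357, 2173 and 2209 in the telomerase tumours and 1627, 1785, 1782, 1878 and 1398 in ALT 1 to 5. The groups did not overlap, and ALT 5 was the lowest. The fall was −0.41 on the log2 scale (SE 0.0987, limma adjusted p = 0.0188). Its second probe set moved alike (−0.41), while another, dimmer one pointed up (0.32, adjusted p = 0.167), and the mean of all 3 gave −0.17 (0.189). The call was lost without telomerase 1 (0.0870).

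Among the transcription factors, Irf7, the regulator that amplifies type I interferon production, was at 159, 219 and 118 in the telomerase tumours. In ALT 1 to 5 it was at 67.1, 65.6, 90.6, 84.5 and 104, below every telomerase value. The log2 difference was −0.86 (SE 0.198, limma adjusted p = 0.0154). Without telomerase 1 or telomerase 2 the adjusted p was 0.0590 and 0.0651.

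Irf9 encodes the DNA-binding partner of STAT2. Its signal was 157, 203 and 181 in the telomerase tumours and 93.9, 76.0, 120, 109 and 132 in the ALT tumours, again with no overlap. The fall was −0.70 on the log2 scale (SE 0.164, limma adjusted p = 0.0170), with an adjusted p of 0.0759 without telomerase 2 and 0.0542 without telomerase 3. Stat2 itself was at 62.2 to 94.7 in telomerase and 62.1 to 106 in ALT tumours, with a log2 difference of 0.01 (adjusted p = 0.978). Irf1, which answers to both interferon types and was the brightest gene of this role, was at 632, 568 and 809 in telomerase 1 to 3 and 450, 601, 645, 918 and 437 in ALT 1 to 5. The ALT tumours spanned the telomerase range on both sides, and the difference of −0.17 did not pass (adjusted p = 0.663).

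Promoter windows in the RefSeq table (build GRCm38.p6, from 250 bases before to 50 after a start site) were matched by symbol for 24 of the 32 measured members. The interferon-stimulated response element was searched on both strands as GAAA and GAAA with any 2 bases between them and the gamma-activated site as TTCNNNGAA, which reads the same pattern on both strands. The first was found in 14 of the 24 members (58.3%) and in 1079 of all 27025 genes of the table (3.99%), and in 3.44% of all windows. The second was found in 9 members (37.5%) and in 9.55% of all genes. Among the 4 members past the threshold with a window (Irf7, Irf9, Trim25 and Adar) 0 held the first motif and 1, Adar, held the second, against 14 and 8 of the other 20 members. A match or its absence describes the letters of the window only.

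The 250 bases before the start site are printed 5′ to 3′ for 6 members, with matches to either motif in capitals. Irf7 and Irf9 are shown as the transcription factor genes that fell, Igtp and Rsad2 as members with a lower mean in ALT tumours that missed the threshold, and Ifit3 and Bst2 as members without a lower mean that carry matches. The windows are chr7:141266425-141266674 (minus strand) for Irf7, chr14:55603735-55603984 (plus) for 1 of the 2 windows of Irf9, chr11:58199306-58199555 (plus) for Igtp, chr12:26456453-26456702 (minus) for Rsad2, chr19:34583279-34583528 (plus) for Ifit3 and chr8:71537473-71537722 (minus) for Bst2.
Irf7: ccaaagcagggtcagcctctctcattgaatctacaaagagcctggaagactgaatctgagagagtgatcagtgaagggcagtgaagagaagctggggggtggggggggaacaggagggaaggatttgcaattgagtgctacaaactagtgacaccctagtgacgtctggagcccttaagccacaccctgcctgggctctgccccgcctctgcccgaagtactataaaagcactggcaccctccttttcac
Irf9: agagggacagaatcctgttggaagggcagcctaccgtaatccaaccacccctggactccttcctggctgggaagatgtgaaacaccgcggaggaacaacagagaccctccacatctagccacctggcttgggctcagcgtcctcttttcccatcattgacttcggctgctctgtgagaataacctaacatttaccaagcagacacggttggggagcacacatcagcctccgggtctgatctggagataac
Igtp: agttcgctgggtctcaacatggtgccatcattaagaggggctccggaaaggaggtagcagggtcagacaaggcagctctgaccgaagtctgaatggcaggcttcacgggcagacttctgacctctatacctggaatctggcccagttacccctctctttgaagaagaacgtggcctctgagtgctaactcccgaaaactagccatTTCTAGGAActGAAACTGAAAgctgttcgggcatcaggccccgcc
Rsad2: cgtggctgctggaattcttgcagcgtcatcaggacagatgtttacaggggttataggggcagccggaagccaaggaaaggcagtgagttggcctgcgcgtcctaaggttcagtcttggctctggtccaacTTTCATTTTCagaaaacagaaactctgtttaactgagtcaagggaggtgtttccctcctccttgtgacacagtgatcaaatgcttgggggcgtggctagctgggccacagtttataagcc
Ifit3: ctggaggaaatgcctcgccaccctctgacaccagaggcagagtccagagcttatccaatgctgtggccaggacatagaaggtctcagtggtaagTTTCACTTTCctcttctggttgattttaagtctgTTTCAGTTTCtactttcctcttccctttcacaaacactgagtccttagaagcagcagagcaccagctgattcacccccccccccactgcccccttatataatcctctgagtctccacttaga
Bst2: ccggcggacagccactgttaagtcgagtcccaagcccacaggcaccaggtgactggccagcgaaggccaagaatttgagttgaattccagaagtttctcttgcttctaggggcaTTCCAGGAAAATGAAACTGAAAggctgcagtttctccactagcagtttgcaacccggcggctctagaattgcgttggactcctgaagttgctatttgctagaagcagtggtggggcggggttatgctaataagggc
In Igtp a gamma-activated site starting at position −45 is followed by a response element starting at −34. Rsad2 has 1 response element, at −120, and Ifit3 has 2, at −156 and −122. In Bst2 a gamma-activated site at −136 runs into response elements at −130 and −124, which overlap each other. The printed windows of Irf7 and Irf9 hold neither motif.

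Among sensors and RNA-acting enzymes, Zbp1 gave the firmest call. Its protein binds Z-form nucleic acid and can start necroptosis. The signal was 77.5, 97.3 and 59.7 in the telomerase tumours and 27.1, 26.3, 35.7, 35.1 and 16.9 in ALT 1 to 5. All ALT values were low, near the filter on low signal, and the lowest was in ALT 5. The log2 difference was −1.09 (SE 0.198, limma adjusted p = 0.00501), and the call held whichever array was left out (adjusted p from 0.00605 to 0.0286). It was lost within the arrays high in pancreatic transcripts (−0.95, adjusted p = 0.173), and a second, dimmer probe set had −0.26 (0.466).

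Adar encodes the enzyme that edits adenosine in double-stranded RNA and so keeps a cell's own RNA from being sensed. Its signal was 232, 225 and 290 in the telomerase tumours and 160, 190, 193, 159 and 157 in the ALT tumours. The groups were separate, and telomerase 3 was the highest. The fall was −0.49 on the log2 scale (SE 0.122, limma adjusted p = 0.0207); it missed the threshold without telomerase 1 (0.0552) or telomerase 3 (0.0849). The other probe sets of Adar had −0.24 and 0.03, and neither passed.

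Parp14, an ADP-ribosyltransferase gene induced by interferon, was at 293, 328 and 265 in telomerase and 227, 224, 219, 223 and 246 in ALT tumours. The ALT values lay within a narrow band under the lowest telomerase value. The fall of −0.35 (SE 0.0979, limma adjusted p = 0.0352) was the least secure of the 7: it missed the threshold in each leave-one-out comparison except those without telomerase 3 and without ALT 5, where the adjusted p was 0.0362 and 0.0345, and reached 0.145 without telomerase 2.

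The other sensors did not pass. Dhx58, which encodes the regulator LGP2, lay below the filter and was not tested; its signal was 36.6, 27.6 and 26.5 in telomerase and 3.94, 10.6, 15.2, 2.10 and 9.14 in ALT tumours, without overlap. Ifih1 had a log2 difference of −0.42 (adjusted p = 0.329), with telomerase 2 at 86.8 and ALT 5 at 82.1 above the other arrays. Ddx58 was at 183, 141 and 192 in telomerase and 159 to 210 in ALT tumours (log2 difference 0.07), and its dimmer second probe set pointed down (−0.73, limma adjusted p = 0.0240 when every probe set was fitted on its own). Eif2ak2, the gene of the kinase PKR that stops translation, had a brightest probe set that did not pass (−0.17), a second that rose (0.29, adjusted p = 0.0464) and another that fell (−0.51, adjusted p = 0.0261), so its direction depends on the probe set.

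**Figure D2:**
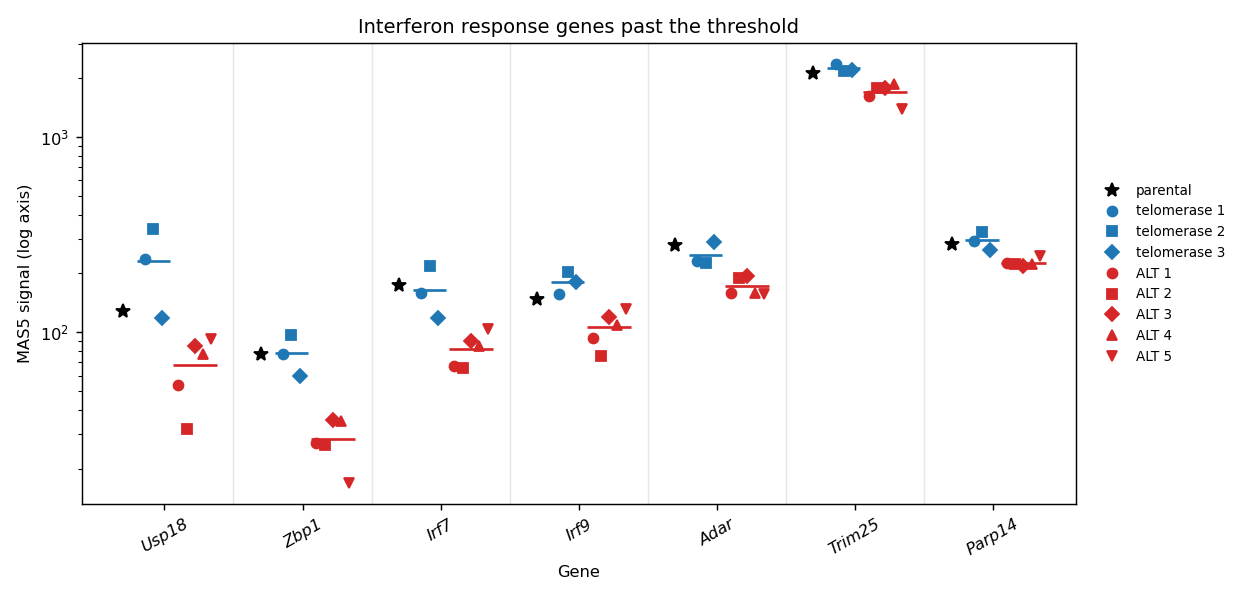
MAS5 signal, on a log axis, of the 7 interferon response genes past the threshold in the parental tumour (stars), the 3 telomerase tumours (blue) and the 5 ALT tumours (red), with group means of the passage 4 tumours as lines. In each gene the red points lie below the blue points, at a short distance in Irf7, where telomerase 3 was at 118 and ALT 5 at 104.

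The 6 tested effector genes of the MX, BST2, RSAD2, SAMHD1 and IFI group did not pass the threshold, and they varied within the groups. Mx1 and Mx2 encode dynamin-like GTPases that block virus replication. Mx1 was at 80.0 in telomerase 1 but 353 and 412 in telomerase 2 and 3, and at 97.3, 47.5, 141, 126 and 52.6 in ALT 1 to 5. Telomerase 1 thus lay inside the ALT range and the other 2 telomerase tumours above it, and the difference of −1.28 missed the threshold (SE 0.490, limma adjusted p = 0.103). Mx2 showed the same order of telomerase tumours (83.9, 173 and 272), with 74.4 to 130 in ALT tumours (−0.60, adjusted p = 0.209). Without telomerase 1 both passed, Mx1 with −1.96 (adjusted p = 0.0121) and Mx2 with −1.003 (0.0302). Mx1 had −0.34 (adjusted p = 0.772) within the arrays low in pancreatic transcripts and −2.44 (0.0209) within those high in them.

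Rsad2, the gene of viperin, an enzyme that makes a chain-terminating nucleotide, had another order: 155, 185 and 82.4 in telomerase 1 to 3 and 68.7, 81.8, 65.9, 41.9 and 130 in ALT 1 to 5. Telomerase 3 lay within the ALT range. The difference of −0.75 did not pass (SE 0.303, limma adjusted p = 0.122), and within the arrays low in pancreatic transcripts it was −1.43 (adjusted p = 0.0161), while within those high in them it was 0.11 (0.908). Rsad2 also passed without telomerase 3 (−1.05, adjusted p = 0.04997) and without ALT 5 (−0.92, 0.0413). Bst2, which encodes tetherin and was the brightest effector, was at 1055, 916 and 784 in telomerase and 882, 827, 981, 1237 and 1167 in ALT tumours (0.14, adjusted p = 0.566), with the groups overlapping. Samhd1, the gene of a dNTP hydrolase, also overlapped, at 88.9 to 125 and 97.8 to 158 (0.21, adjusted p = 0.408). Ifi35 was at 693, 799 and 713 in telomerase and 639, 601, 660, 676 and 680 in ALT tumours, without overlap, and its small difference of −0.17 did not pass (adjusted p = 0.206).

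The IFIT genes, whose products bind foreign RNA ends, did not pass. Ifit2 was at 436, 502 and 339 in telomerase and 569, 518, 580, 442 and 456 in ALT tumours (log2 difference 0.27, SE 0.143, limma adjusted p = 0.231). Its 3 highest values were all in ALT tumours, but the groups overlapped. Ifit3 was at 44.9 to 62.8 and 35.6 to 67.6 (−0.01, adjusted p = 0.984). Ifit1 lay below the filter, with signals from 14.2 to 35.0 over all arrays.

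The OAS family did not pass either. The active enzymes of the family make the second messenger that activates the RNA-cutting enzyme RNase L. Oas1a, the brightest of them, was at 129, 192 and 117 in telomerase and 103, 132, 168, 182 and 272 in ALT tumours (0.17, limma adjusted p = 0.700). Oas2 and Oas3, its neighbours on chromosome 5, had log2 differences of 0.32 (adjusted p = 0.197) and 0.44 (0.369), and ALT 5 was the highest passage 4 array for all 3. Oasl1 had 0.13 (adjusted p = 0.667). Oasl2, a oligoadenylate synthetase-like gene, stood apart with 55.3, 43.9 and 27.2 in telomerase and 7.65, 19.5, 8.17, 9.28 and 35.9 in ALT tumours; ALT 5 lay above telomerase 3, and the difference of −0.90 did not pass (SE 0.297, adjusted p = 0.0650). Without ALT 5 it passed, with −1.09 (adjusted p = 0.0159).

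The guanylate binding proteins and immunity-related GTPases attack the vacuoles of intracellular pathogens and are induced mostly by type II interferon. All 5 had a log2 difference below 0, from −0.29 for Irgm1 to −0.54 for Iigp1, beside 50.9% of all tested genes. Of the 5, 0 passed and 1 had an unadjusted p below 0.05, beside 17.5% and 31.4% of all tested genes. Igtp, the brightest, was at 465, 423 and 338 in telomerase and 229, 260, 373, 361 and 244 in ALT tumours (−0.47, SE 0.181, limma adjusted p = 0.105). ALT 3 and ALT 4 reached into the telomerase range, and ALT 1, 2 and 5 stayed below it. The 3 low ALT tumours are those with abundant pancreatic transcripts, and telomerase 3, the telomerase tumour that carries them, was the lowest of its group. Under 22 other settings, fits split by pancreatic signal or holding a term for it among them, the difference of Igtp was −0.60 to −0.26. Beyond those fits the part of pancreatic transcripts was not tested. Iigp1 was at 141, 66.1 and 29.7 in telomerase and 35.2 to 49.1 in ALT tumours, so telomerase 3 lay below every ALT tumour (log2 difference −0.54, adjusted p = 0.292). Without telomerase 3 Iigp1 passed, with −0.98 (adjusted p = 0.0328).

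**Figure D3:**
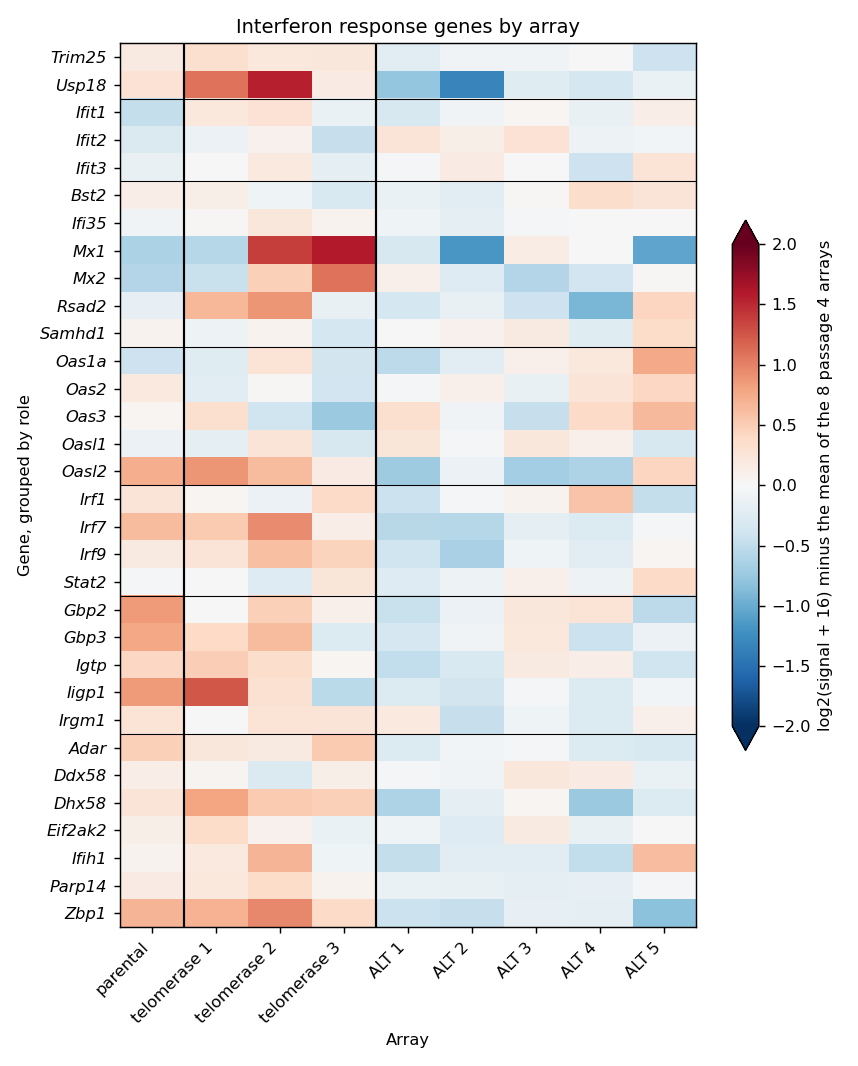
Log2 of the signal plus 16 of the 32 measured members in each array, as the difference from the mean of the 8 passage 4 arrays (red higher, blue lower, colours end at 2), with genes grouped by role. Telomerase 2 is red in most rows, Usp18, Irf7, Irf9, Adar and Zbp1 are red across the 3 telomerase columns, and the Oas1a, Oas2 and Oas3 rows are reddest in ALT 5.

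The members did not follow a single order of tumours. Telomerase 2 held the highest passage 4 value of 12 of the 30 tested members, while it was highest for 10.7% of all tested genes. Telomerase 1 was highest for 5 and telomerase 3 for 3, beside 15.7% and 13.2% of all tested genes. Telomerase 3 was lowest for 7, beside 12.7%. ALT 1 and ALT 2 were highest for 0 members, beside 9.54% and 10.8% of all tested genes. They were lowest for 4 and 7, beside 11.7% and 11.4%. ALT 5 was highest for 6 members and lowest for 5, beside 15.8% and 17.5% of all tested genes. The median log2 signal of the members was 7.36, 7.67 and 7.07 in telomerase 1 to 3 and 6.85, 6.72, 6.93, 6.90 and 7.20 in ALT 1 to 5, so ALT 5 lay above telomerase 3. The parental tumour has no replicate. It lay nearer to the telomerase mean in all 7 members that fell, as it did in 93.4% of all genes past the threshold, and in 20 of the 30 tested members (66.7%), where 71.2% of all tested genes did so.

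Genes of the pathway outside the list were read from lists of ligands, receptors, kinases and feedback, upstream sensing and further interferon-induced genes. Of 82 tested 4 rose (4.88%) and 10 fell (12.2%), near the 7.48% and 10.1% of all tested genes, and their median log2 difference was −0.06. Interferon ligands were dim: 9 of the 10 with a probe set, Ifnb1 and Ifng among them, lay below the filter with means from 1.84 to 22.2. The tested one, Ifnz, an interferon zeta gene, had a log2 difference of −0.56 that did not pass (limma adjusted p = 0.0695). Without telomerase 1, 3 of the 82 rose and 6 fell, where 504 and 659 of the 12369 tested genes did. Without telomerase 2, 4 rose and 5 fell, where 627 and 845 of all tested genes did.

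Receptor chains moved in different directions. Ifngr1, the ligand-binding chain of the type II receptor, was at 755, 755 and 836 in telomerase and 2672, 1610, 1027, 1670 and 2131 in ALT tumours. Every ALT tumour was higher, with a wide spread among them. The rise was 1.14 on the log2 scale (SE 0.248, limma adjusted p = 0.0122, and 0.0532 without telomerase 1). Ifngr1 also lost its call within the arrays low in pancreatic transcripts and with replicate numbers as blocks. Its partner Ifngr2 was at 192, 182 and 217 in telomerase and 87.4, 175, 126, 132 and 110 in ALT tumours and fell by 0.61 on the log2 scale (SE 0.179, adjusted p = 0.0419), a call that was lost in 7 of the 8 leave-one-out comparisons (adjusted p up to 0.129). The type I chains Ifnar1 and Ifnar2 had −0.42 (adjusted p = 0.0967) and 0.32 (0.260). Of 11 tested genes of the JAK, STAT and feedback list 0 passed, and 3 had an unadjusted p below 0.05, beside 17.5% and 31.4% of all tested genes. Jak1 had 0.22 (adjusted p = 0.172) and Tyk2 −0.23 (0.329).

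Upstream sensing genes mostly did not pass: of 21 tested, 0 rose and 2 fell, beside 7.48% and 10.1% of all tested genes. Ifi204, a DNA-binding member of the HIN-200 family, was at 215, 82.0 and 148 in telomerase and 5.16, 7.11, 6.16, 12.8 and 15.3 in ALT tumours. All ALT values lay below the pseudocount of 16, so the size of its log2 difference, −2.63 (SE 0.270, limma adjusted p = 0.000269), depends on it. The call held whichever array was left out and within both classes of pancreatic signal. Dnase2a, the lysosomal DNase that clears engulfed DNA, fell by 0.72 on the log2 scale (489 ± 62.1 to 291 ± 38.1, SD, n = 3 and 5, adjusted p = 0.00437). The call was lost within each class of pancreatic signal. Cgas was dim in both groups (24.2 ± 8.94 and 28.5 ± 11.4, 0.12, adjusted p = 0.803). Sting1, Mavs and Irf3 had log2 differences of 0.20 (adjusted p = 0.298), 0.15 (0.491) and −0.14 (0.460).

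In the list of other interferon-induced genes 45 were tested, and 3 rose and 8 fell, beside 7.48% and 10.1% of all tested genes. Ifi204 was counted here as well as under sensing. Those that fell included Rtp4 (271, 459 and 235 in telomerase, 81.5, 71.5, 109, 61.4 and 198 in ALT tumours; −1.53, limma adjusted p = 0.0109), which encodes a receptor transporter. Its call was just lost without telomerase 2 (0.0507). Parp12, an ADP-ribosyltransferase gene like Parp14, was at 146, 168 and 130 in telomerase and 59.5, 43.7, 68.6, 37.0 and 90.7 in ALT tumours (−1.15, SE 0.219, adjusted p = 0.00629), and no single array decided that call. Mndal, on chromosome 1 like Ifi204 and of the same HIN-200 family, was at 2738, 1508 and 2469 against 691 to 1158 (−1.17, adjusted p = 0.00464). Cmpk2, a mitochondrial nucleotide kinase gene that lies on chromosome 12 like Rsad2, was at 45.8, 72.8 and 36.0 against 14.3 to 26.1 (−0.84, adjusted p = 0.0251), and the call was lost without telomerase 1, telomerase 2 or ALT 2 (up to 0.109). Lgals3bp, a secreted glycoprotein gene, and Tor1aip1, a nuclear membrane protein gene, fell by 0.56 (adjusted p = 0.0356) and 0.55 (0.00895) on the log2 scale; the Lgals3bp call was lost in 5 of 8 leave-one-out comparisons (up to 0.157). The mean of all probe sets gave −0.21 for Tor1aip1 (adjusted p = 0.172) and −0.41 for Cmpk2 (0.150). Tor1aip1 and Cmpk2 also lost their calls within the arrays low in pancreatic transcripts and with replicate numbers as blocks.

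The rises were led by Gbp6, a guanylate binding protein gene, at 39.3, 65.4 and 46.2 in telomerase and 641, 157, 476, 453 and 154 in ALT tumours. Each ALT tumour was above all telomerase tumours, with ALT 2 and ALT 5 the lowest of the ALT group (log2 difference 2.37, SE 0.446, limma adjusted p = 0.00592). Gbp2 and Gbp3, members of the same protein family on chromosome 3, had means of 36.2 and 55.3 in telomerase and 26.8 and 36.8 in ALT tumours. Ifi27l2a, a small interferon-induced protein gene, was at 229, 195 and 240 in telomerase and 448, 421, 498, 565 and 965 in ALT tumours (1.26, adjusted p = 0.00578), highest in ALT 5. Pnpt1, which encodes a mitochondrial RNA-degrading enzyme, was at 548 to 566 in telomerase and 747 to 937 in ALT tumours (0.53, adjusted p = 0.00454). These 3 calls held whichever array was left out, and they were lost within the arrays high in pancreatic transcripts, where 1 telomerase tumour remains. Within the arrays low in them, and with replicate numbers as blocks, Pnpt1 lost its call while Gbp6 and Ifi27l2a kept theirs. With the mean of all probe sets the difference of Pnpt1 was 0.15 (adjusted p = 0.245).

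**Figure D4:**
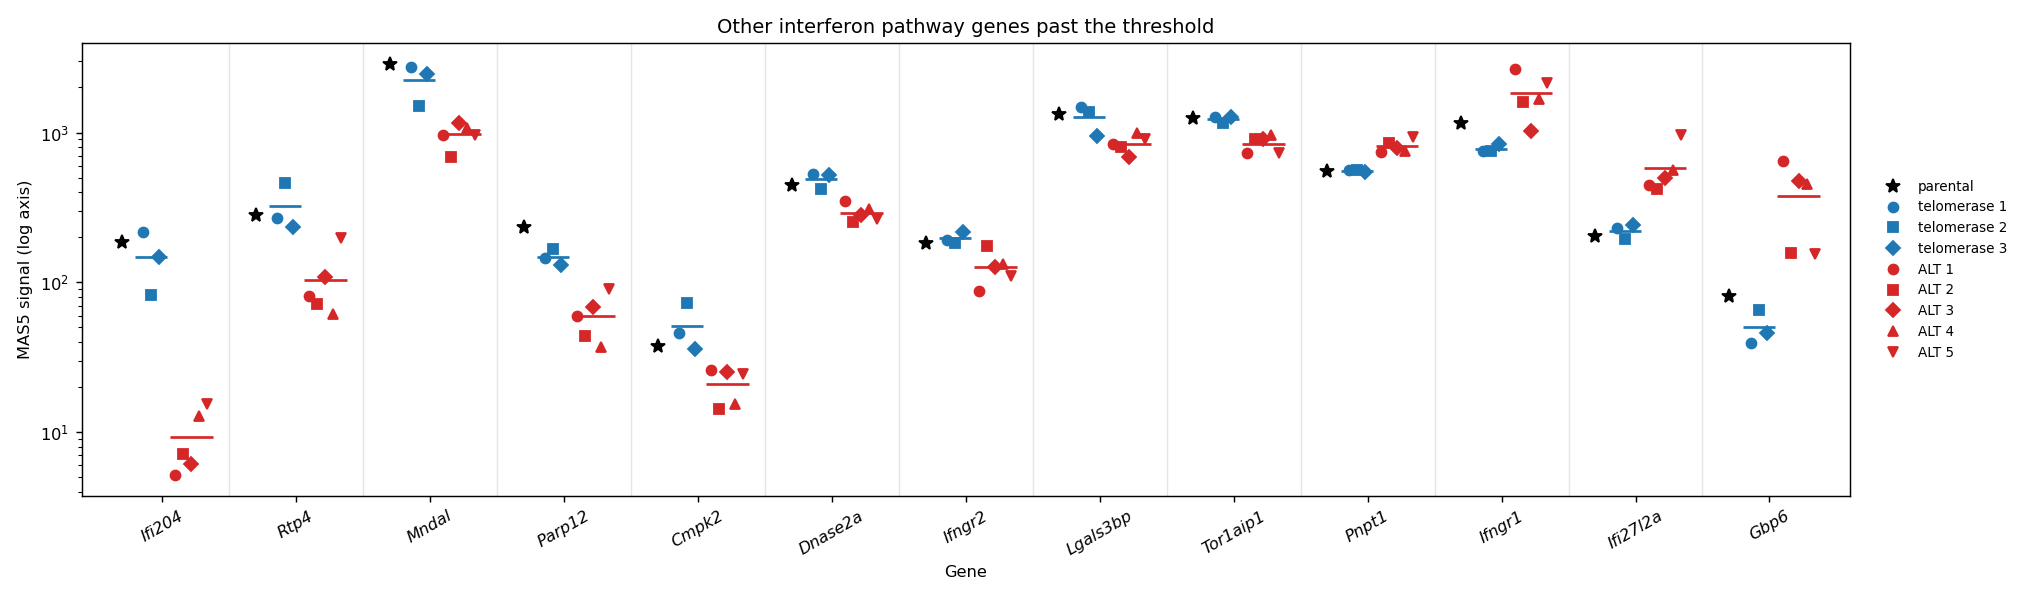
MAS5 signal, on a log axis, of 13 of the 14 pathway genes outside the list that passed the threshold, in the parental tumour (stars), telomerase tumours (blue) and ALT tumours (red), with means of the passage 4 groups as lines. Ifi204 falls from 148 to 9.31 on average and Gbp6 rises from 50.3 to 376, and apart from Lgals3bp the 2 groups do not overlap in these genes.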

How the data were processed

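Total RNA was converted to biotin-labelled cDNA for arrays, per the labels' protocols. The deposited table gives 1 intensity for each of 45101 probe sets on each of 9 arrays; the authors computed it with MAS5, per the submitters' processing notes, with version, settings and scaling target not given in the sources used here. Values are linear and were not normalised further. In the platform's probe annotation 34958 probe sets name 1 gene, 932 several and 9211 none; 34754 of the first kind matched the RefSeq table of GRCm38.p6 by gene ID, and none changed its symbol. The brightest probe set stood for each of 18194 genes. Genes with a mean at or below the 40th percentile of probe sets (25.3) were left out, which left 12369.

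Log2 of the signal plus 16 was compared between 5 ALT and 3 telomerase tumours with limma 3.58.1 in R 4.3.3 (intensity trend, two-sided, Benjamini-Hochberg adjustment over the 12369 genes, threshold 0.05). Differences on this scale understate changes of dim genes. The parental tumour was described only. The model was tested on simulated data. Leave-one-out, filter, pseudocount, scaling, probe set, pairing and pancreatic signal alternatives were run; any probe set of a gene, and array ranks under other scalings, were added after the data were seen. Arrays were classed by the summed signal of acinar markers. All members with a probe set are accounted for. Array values are given for members past the threshold or without overlap, the brightest of each role and, chosen after their values were seen, some others; from the pathway lists, up to 10 genes each past the threshold and some set genes were named. The members and lists were chosen with earlier results of these data known. Plots used Python 3.11.15 and matplotlib 3.10.9.

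Replicate numbers recur in both groups, and the labels do not say that they mark shared animals or days.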

Additional observations from a re-analysis of the deposited data

Results flagged for a closer look

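In 2 of the genes described, 1 ALT array stood far from the other 4, by Dixon's ratio of the gap to the range on the log2 scale, with a critical value of 0.71 for 5 arrays; chance exceeds it in about 1 in 20 groups. Ifih1 was at 82.1 in ALT 5 and between 29.7 and 39.5 in the other ALT tumours (ratio 0.746). Cgas was at 8.68 in ALT 1 and between 31.2 and 38 in the others (ratio 0.828). Of the 30 tested members 1 had such a value, and of the 82 tested pathway genes 6 did.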

How the results depend on the processing

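Under 22 other settings, Usp18, Trim25, Irf7, Irf9, Adar and Parp14 kept a log2 difference below 0, as did Zbp1 under the 21 it could be tested in. The count of members that fell, 7, was 4 with the mean of all probe sets and 0 with the replicate block. It was 3 to 9 when 1 array was left out. Within the arrays high in pancreatic signal, with 1 telomerase tumour, the median log2 difference of the members was −0.19. When any probe set of a gene counted, 9 members fell and 1, Eif2ak2, rose. Eif2ak2 was also among the 9, through another probe set. The share of all genes under this setting was not computed. The pathway genes that fell, 10, were 3 and 2 within the arrays low and high in pancreatic signal, 16 at an adjusted p of 0.1 and 5 to 11 when 1 array was left out. Those that rose, 4, were 7 with the parental tumour counted as telomerase, 2 with the replicate block, 2 and 0 within the arrays low and high in pancreatic signal, and 7 at an adjusted p of 0.1. Of all genes, 1245 fell and 925 rose; the block gave 619 and 372, low pancreatic signal 454 and 379, high pancreatic signal 198 and 138, and leaving out 1 array 659 to 1271 and 504 to 910. The cause of these shifts was not tested, beyond fewer arrays in several of them. The same-numbered tumours of the 2 groups did not deviate together (correlations of −0.302, −0.402 and −0.572 for the 3 pairs). Of the 3 telomerase tumours 0 correlated best with their own number. In each pair 1 tumour was high in pancreatic transcripts and the other low, so these correlations cannot tell whether a number marks a shared line. The numbers were not taken as pairs, and with the replicate block 0 of the 7 members passed. A spacer of 4 in the gamma-activated site gave 5 members in place of 9 (20.8%, beside 8.01% of all genes). Of the members past the threshold Irf9 was then among those with the site, and Adar was not.

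Signs turned in genes that had not passed, and did not pass there. Within the arrays high in pancreatic signal the log2 difference was 0.32 for Ifit3, −0.23 for Stat2, 0.11 for Rsad2, 0.10 for Gbp3, 0.31 for Iigp1, 0.0552 for Ifih1, −0.19 for Ddx58, 0.0193 for Eif2ak2, −0.0534 for Ifnar2, −0.17 for Cgas and −0.21 for Mavs. Within those low in it, Oas3 had −0.0019, Irf1 0.35, Gbp2 0.0140 and Samhd1 −0.0169. With the replicate block Ifit3 had 0.0376, Oas1a −0.10, Stat2 −0.0786, Bst2 −0.0268 and Cgas −0.045. Ifit3 had 0.0078 with quantile normalisation, 0.0053 with median centring and 0.0299 with the parental tumour added, where Cgas had −0.0511. Stat2 had −0.0492 with a term for pancreatic signal, and the mean of probe sets gave −0.19 for Ddx58 and −0.29 for Ifnar2. Leaving out 1 array gave −0.10 to 0.10 for Ifit3, −0.12 to 0.13 for Stat2, −0.0508 to 0.15 for Ddx58 and −0.0733 to 0.32 for Cgas.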
